A study of Mus musculus with 9 samples.

Results

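A list of 8 genes tied to memory-like and innate CD8 T cells, Eomes, Tbx21, Cd44, Nkg7, Cst7, Ctsw, Dapl1 and Zbtb16, is described here in sorted mouse thymocytes. Memory-like or innate cells were not sorted as such. The genes were taken by name, through the RefSeq accession of each probe, and are 8 of the 20258 named genes on the array and 13 of its 55537 probes. RNA from 9 samples of C57BL/6 mice, all carrying Tie2-Cre, was hybridised to 1 Agilent array each, with 1 array per group. The conditional knockout (CKO) animals were Brd1flox/flox and the controls Brd1+/+. DP (CD4+CD8+), CD4SP and CD8SP cells were taken from CKO and from control mice at 8 weeks, and a further CD8SP pair came from CKO and control mice at 14 weeks intercrossed with OT-I (spelled OT-l in the labels). CD4SP cells lacking surface TCRβ were taken from CKO mice at 8 weeks and had no control array. Tie2-Cre is active in endothelial cells and in blood-forming cells, so these animals are not a thymocyte-restricted deletion, and OT-I thymocytes carry a single rearranged receptor that recognises an ovalbumin peptide on MHC class I. Levels are log2 signals relative to the 75th percentile of the same array, so a level of 0 equals that percentile and levels are not compared between genes.

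Most CD8SP thymocytes leave the thymus as naive cells. A minority program, called memory-like or innate, is known from mice in which thymocytes receive interleukin 4 or altered receptor signals, and its cells carry Eomes and CD44 before meeting antigen. Eomes and T-bet (Tbx21) are T-box factors that drive effector and memory genes in CD8 T cells and NK cells, PLZF (Zbtb16) directs innate-like lineages such as iNKT cells, and granule proteins and proteases serve killing by cytotoxic cells.

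Upstream sequence is shown for 4 genes whose levels separated CD8SP from DP cells below, as the 250 bases before the gene start in RefSeq on mouse build GRCm38.p6, written 5′ to 3′ on the gene's strand. RefSeq sequence was matched for 6 of the 8 genes. Capitals mark matches to the T-box core, GGTGTG or its complement CACACC, and to the Runx core, TGTGGT or its complement ACCACA, which do not overlap in these windows.
Nkg7, chr7:43436888-43437137 (+ strand): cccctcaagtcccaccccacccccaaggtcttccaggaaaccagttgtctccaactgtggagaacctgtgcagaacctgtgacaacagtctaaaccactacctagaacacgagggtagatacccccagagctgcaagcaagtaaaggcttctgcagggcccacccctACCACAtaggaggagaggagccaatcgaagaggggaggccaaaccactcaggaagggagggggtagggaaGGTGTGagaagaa
Cst7, chr2:150570165-150570414 (+ strand): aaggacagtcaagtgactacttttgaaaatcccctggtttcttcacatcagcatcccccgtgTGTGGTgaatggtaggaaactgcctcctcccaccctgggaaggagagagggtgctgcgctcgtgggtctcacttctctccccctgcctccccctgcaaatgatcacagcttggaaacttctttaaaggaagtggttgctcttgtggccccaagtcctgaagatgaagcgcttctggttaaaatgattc
Eomes, chr9:118477939-118478188 (+ strand): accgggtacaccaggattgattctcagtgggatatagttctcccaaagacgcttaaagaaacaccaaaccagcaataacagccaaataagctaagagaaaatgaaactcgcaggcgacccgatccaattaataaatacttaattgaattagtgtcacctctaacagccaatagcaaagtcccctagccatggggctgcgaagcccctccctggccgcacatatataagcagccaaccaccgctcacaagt
Dapl1, chr2:59484403-59484652 (+ strand): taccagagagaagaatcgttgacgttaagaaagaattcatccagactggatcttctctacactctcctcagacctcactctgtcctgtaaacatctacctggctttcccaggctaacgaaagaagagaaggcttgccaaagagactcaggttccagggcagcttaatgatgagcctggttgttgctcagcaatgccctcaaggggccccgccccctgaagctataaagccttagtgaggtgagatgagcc

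The T-box core was found in 1 of the 6 windows, that of Nkg7, 13 bases upstream of the start, against 16.3% of 32851 mouse windows of the same length. The Runx core was found in 2 of the 6, 83 bases upstream of Nkg7 and 188 bases upstream of Cst7, against 14.0% of all windows. The E-box, CANNTG, was found in 3 of the 6 (Tbx21, Nkg7 and Cst7) and in 66.2% of all windows. These are letter matches in short windows and were not tested as sites.

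The arrays had 21667 to 25489 of 55537 probes well above background. The first slide held the DP and CD4SP pairs, the CD8SP control and the TCRβ-negative sample, and the second held the CD8SP CKO and both OT-I arrays, so the CD8SP pair was split between slides. Brd1 itself was not lower on any CKO array, at -0.33, -0.99, -0.73 and -0.73 in CKO DP, CD4SP, CD8SP and OT-I cells, against -0.79, -1.09, -1.37 and -1.34 in the controls. Where this probe lies relative to the deleted part was not known, so it does not check the labels, and CKO below means the arrays labelled so. The 5 conventional T-cell markers were well above background on all 9 arrays, with a summed log2 level of 10.89 to 11.42. Cd4, Cd8a and Cd8b1 followed the gates, and Runx3 was highest in CD8SP and OT-I cells. Cd4 stayed well above background in CD8SP cells, at 3.28 in CKO and 3.50 in control, and in OT-I cells, at 3.14 in CKO and 3.15 in control. Cd8b1 stayed well above background in CD4SP cells, at 0.54 in CKO and 1.67 in control, and was at 3.24 in TCRβ-negative cells. The CD4-lineage marker Zbtb7b did not separate the gates, at 7.06 in CKO CD4SP cells and 7.12 in control CD8SP cells. Cd40lg, of the same list, was not well above background on any array.

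Eomes, the T-box factor that marks memory-like CD8 thymocytes, stood at -4.89 in CKO DP cells and -5.0 in control DP cells, neither well above background. In CD4SP cells it was at -1.16 in CKO and at -2.98, not well above background, in control. It reached 0.63 in CKO CD8SP cells against -1.17 in control CD8SP cells, and -0.04 in CKO OT-I cells against -2.03 in control OT-I cells. The TCRβ-negative CKO cells, at -5.38, lay with DP cells below detection. In each of the 3 mature pairs the CKO array was the higher one, and both CD8SP and both OT-I arrays exceeded every DP array. A second Eomes probe was not well above background on any array.

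Tbx21, which encodes T-bet, followed another order. It was at -0.37 and -0.47 in CKO and control DP cells, at 0.28 and 1.08 in CKO and control CD4SP cells, at 1.17 and 1.21 in CKO and control CD8SP cells, and at -0.71 and -1.05 in CKO and control OT-I cells. The TCRβ-negative cells were at -0.22. The OT-I arrays were the lowest of the 9 and the CD8SP arrays the highest, and CKO and control levels overlapped across the populations.

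Zbtb16, which encodes PLZF, was low but well above background on all 9 arrays. CKO and control levels were -1.50 and -1.73 in DP cells, -2.03 and -0.80 in CD4SP cells, -2.37 and -1.24 in CD8SP cells, and -2.25 and -1.99 in OT-I cells, with -2.17 in the TCRβ-negative cells. The control CD4SP array was the highest of the 9, and the CKO CD8SP array the lowest.

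Cd44, the hyaluronan receptor used as a marker of memory T cells, was at 0.25 and 0.46 in CKO and control DP cells, 2.05 and 2.78 in CD4SP cells, 2.27 and 1.41 in CD8SP cells, and 1.00 and 1.22 in OT-I cells. It was at 0.00 in the TCRβ-negative cells. CD4SP and CD8SP arrays were all above DP arrays, and of the 4 pairs CKO exceeded control in CD8SP cells alone. A second Cd44 probe correlated with it at r = 0.95 over the 9 arrays, yet its CKO minus control differences were 0.94, -0.79, 1.10 and 0.08 in DP, CD4SP, CD8SP and OT-I cells, so the probes disagreed in sign in DP and OT-I cells, while 2 further probes were never well above background.

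The 3 granule and protease genes were, by mean, lowest in DP and TCRβ-negative cells and highest in CD8SP and OT-I cells. Nkg7, a granule membrane protein needed for cytotoxic degranulation, was at 3.40 and 2.92 in CKO and control DP cells, 4.30 and 4.80 in CD4SP cells, 7.59 and 6.80 in CD8SP cells, 8.56 and 6.56 in OT-I cells, and 2.85 in TCRβ-negative cells. Cst7, which encodes cystatin F, an inhibitor of granule proteases, was at -1.57 and -2.70 in CKO and control DP cells, 1.19 and 1.76 in CD4SP cells, 4.20 and 3.15 in CD8SP cells, 4.22 and 2.62 in OT-I cells, and -2.54 in TCRβ-negative cells. Ctsw, the cysteine protease cathepsin W of CD8 T cells and NK cells, was at 1.10 and 0.31 in CKO and control DP cells, 4.04 and 4.60 in CD4SP cells, 5.69 and 5.12 in CD8SP cells, 6.19 and 4.05 in OT-I cells, and 0.03 in TCRβ-negative cells. For Nkg7 and Cst7 the CD8SP and OT-I arrays were all above every CD4SP array, whereas the control OT-I array put Ctsw below the control CD4SP array. For all 3 genes CKO exceeded control in DP, CD8SP and OT-I cells and was the lower array in CD4SP cells. A second Nkg7 probe gave the same signs in all 4 pairs, with differences of 1.34, -0.44, 0.93 and 2.21 in DP, CD4SP, CD8SP and OT-I cells.

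Dapl1, a gene named for its likeness to death-associated protein, was at -2.99 in CKO DP cells and at -4.09, not well above background, in control DP cells. It was at 1.01 and 0.74 in CKO and control CD4SP cells, 3.00 and 3.60 in CD8SP cells, and 3.46 and 1.42 in OT-I cells. The TCRβ-negative cells, at -5.72, were not well above background. Every mature array exceeded both DP arrays, and the CKO array was the higher one in all pairs but CD8SP.

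**Figure D1:**
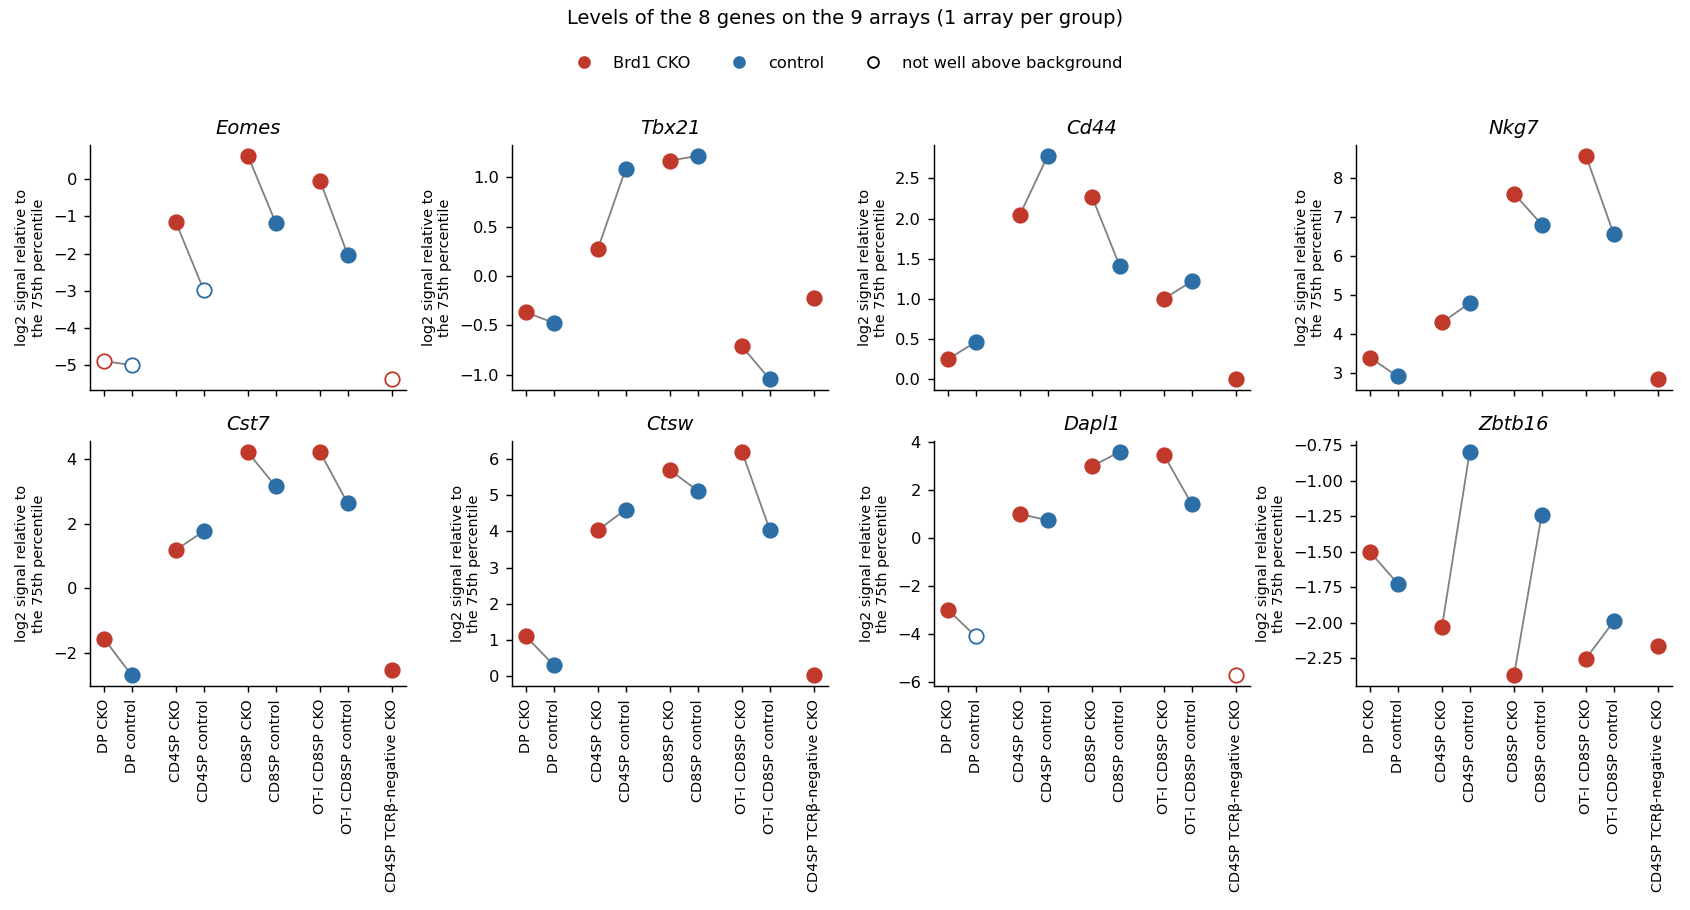
Level of each of the 8 genes on each of the 9 arrays, as log2 signal relative to the array's 75th percentile, with CKO beside control for each population and open symbols where the probe was not well above background. Nkg7, Cst7, Ctsw and Dapl1 are higher on every CD8SP array than on the DP arrays, while Zbtb16 stays between -2.37 and -0.80 on every array.

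Set against DP cells, CD8SP cells had higher levels of 5 of the 8 genes (limma, population and genotype terms over 9 arrays, Benjamini-Hochberg adjustment over 20282 genes), where 2.42% of all genes tested were higher. For each population the CKO array and the control array stood in for replicates. The p-values of population differences therefore do not measure the spread between animals of a group. Dapl1 was 6.84 higher on the log2 scale (SE 0.62, adjusted p = 0.00939), at a mean of 3.30 in CD8SP cells against -3.54 in DP cells. Cst7 rose by 5.81 (SE 0.54, adjusted p = 0.0097), or 56.3-fold, Ctsw by 4.70 (SE 0.61, adjusted p = 0.0202), or 26.0-fold, and Nkg7 by 4.04 (SE 0.57, adjusted p = 0.0256), or 16.4-fold. In the main processing Eomes was at least 8.63-fold higher, since it was not well above background on either DP array, with an adjusted p of 0.0141 in limma. Tbx21 differed by 1.61 (adjusted p = 0.0735) and Cd44 by 1.48 (adjusted p = 0.118), and neither passed the threshold of 0.05. Zbtb16 differed by -0.19 (95% interval -1.25 to 0.86). With slide as a block, none of the 5 calls remained (adjusted p 0.0648 to 0.174 in limma), and 0 of all 20282 genes were called. The first slide alone holds a single CD8SP array, so its calls are not given. Nkg7 lost its call with the percentile taken over detected probes (adjusted p = 0.0545) and with quantile normalization (adjusted p = 0.0617), both in limma. With normexp background correction the estimates of all 5 genes were smaller, at 4.16 for Dapl1 and 3.98 for Cst7. That of Eomes then fell short of the 8.63-fold bound, so this bound depends on the background handling. In bulk RNA a larger share of cells carrying a transcript and more transcript per cell cannot be told apart.

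CD4SP cells also exceeded DP cells, in 4 genes, where 2.16% of all genes tested were higher in limma. Dapl1 was 4.42 higher (adjusted p = 0.0263), Cst7 3.61 (adjusted p = 0.0293) and Ctsw 3.61 (adjusted p = 0.0415). Eomes was 2.88 higher in the limma fit (adjusted p = 0.0465), and 0.65 higher with normexp background correction. Of its 2 CD4SP arrays only that of CKO cells was well above background, and neither DP array was. Its estimate therefore includes values below detection on both sides, and no lower bound is given. Cd44 differed by 2.06 (adjusted p = 0.0667), Nkg7 by 1.39 (adjusted p = 0.288), Tbx21 by 1.10 (adjusted p = 0.184) and Zbtb16 by 0.20 (adjusted p = 0.897). Without the control CD4SP array, CD4SP was 1 array and no gene of any kind was called. That setting therefore does not bear on the 4 genes in particular. Of these 4, quantile normalization left only Dapl1 called (adjusted p = 0.0425) and normexp background correction only Ctsw (adjusted p = 0.0193), both in limma.

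CD8SP and CD4SP cells were not separated by any of the 8 genes after adjustment in limma, where 0.39% of all genes were called in either direction. Unadjusted p was under 0.05 for 4 of the 8, against 13.3% of all genes. Nkg7 was 2.65 higher in CD8SP cells (95% interval 1.24 to 4.06, adjusted p = 0.202), Dapl1 2.42 (adjusted p = 0.264), Cst7 2.21 (adjusted p = 0.247) and Eomes 1.80 (adjusted p = 0.297). Cd44 differed by -0.57 (adjusted p = 0.535). On the first slide alone, where CD8SP is 1 control array, Dapl1 differed by 3.06.

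OT-I CD8SP cells, from mice of 14 weeks, were set against CD8SP cells, from mice of 8 weeks. limma called none of the 8 genes, where 0.237% of all genes were called, and 1 of the 8 had an unadjusted p under 0.05, against 6.92% of all genes. That gene was Tbx21 (unadjusted p = 0.00108), at a mean of -0.88 in OT-I cells against 1.19 in CD8SP cells, a difference of -2.07 (SE 0.35, adjusted p = 0.162). The other 7 differed by -0.86 to 0.36. Receptor, age and, for the CD8SP control array, slide cannot be told apart in this comparison.

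The TCRβ-negative CD4SP cells had lower levels than CD4SP cells in 2 of the 8 genes, where 1.17% of all genes were lower in limma. Dapl1 was at least 20.4-fold lower (adjusted p = 0.0298), and Cst7 differed by -4.42 (adjusted p = 0.0498). With normexp background correction Dapl1 differed by -2.80, short of that bound. Eomes, not called, differed by -4.03. That estimate includes values below detection on the single TCRβ-negative array and on the control CD4SP array, so no bound is given. Ctsw differed by -4.66 (adjusted p = 0.0603), Cd44 by -2.38 (adjusted p = 0.111) and Nkg7 by -2.05 (adjusted p = 0.248). Without the control CD4SP array, each side was a single array and no gene of any kind was called. On the first slide alone more of the 8 passed, and so did more of all genes. Dapl1 and Cst7 both lost their call with the detected-probe percentile, quantile normalization and normexp. Markers of the DP stage moved with this comparison, since their summed log2 level was 8.42 in the TCRβ-negative cells, against 3.47 and 1.92 on the CKO and control CD4SP arrays, and their part in the result was not tested.

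**Figure D2:**
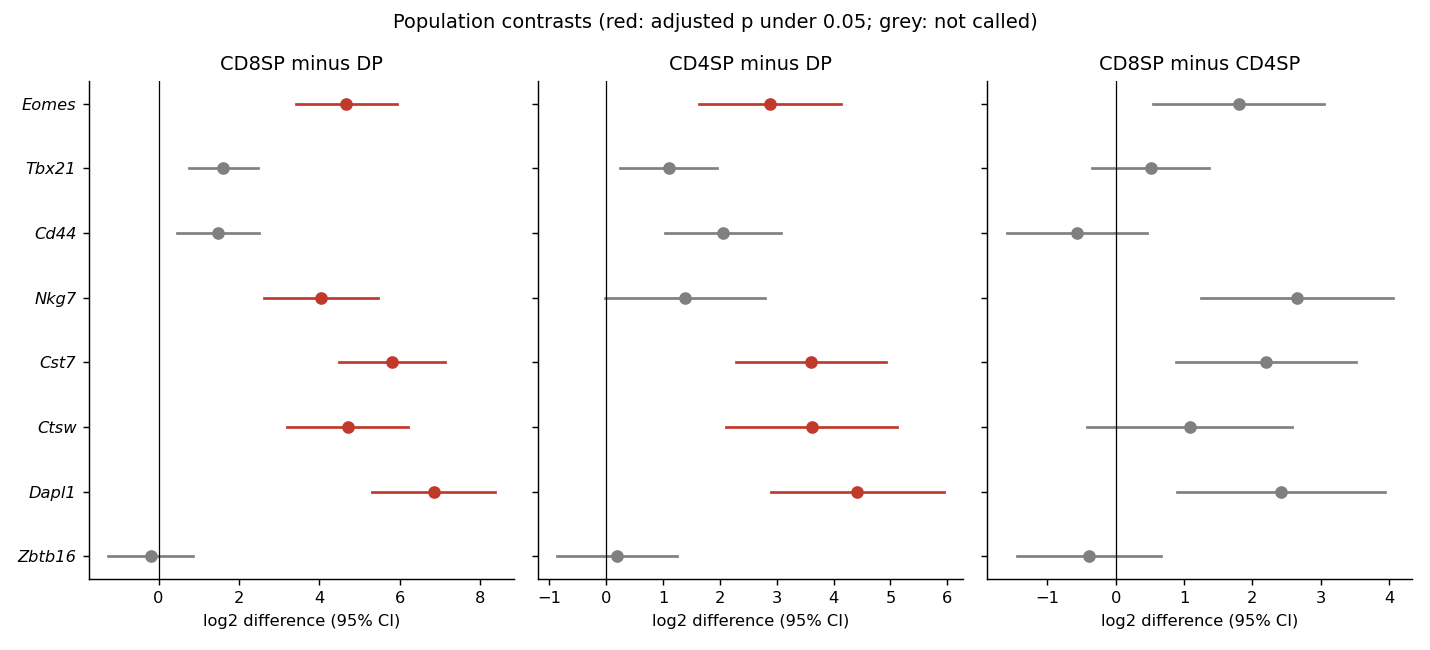
Differences between populations for the 8 genes, as limma estimates on the log2 scale with 95% intervals, red where the adjusted p is under 0.05 and grey otherwise. For CD8SP minus DP, 5 genes are red and Zbtb16 lies near 0, at -0.19, and the fitted Eomes estimates against DP include values below detection.

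The Brd1 genotype was examined by setting each CKO array against the control array of its population. In DP cells 6 of the 7 genes with a detected level were higher in CKO, against 61.9% of all genes. Among them 1 (Cst7, 1.14) was over 2-fold higher and 0 over 2-fold lower, against 3.86% and 5.28% of all genes. In CD4SP cells 2 of 8 were higher, against 48.9% of all genes. Eomes was over 2-fold up and Zbtb16 over 2-fold down, against 3.44% of all genes over 2-fold higher and 5.24% over 2-fold lower. In CD8SP cells 5 of 8 were higher, against 42.1% of all genes. Eomes (1.80) and Cst7 (1.05) were over 2-fold up and Zbtb16 (-1.13) over 2-fold down, against 6.7% and 9.2% of all genes. The OT-I pair had 6 of 8 higher, against 44.8% of all genes, with 5 over 2-fold up and 0 over 2-fold down, against 8.45% and 13.8%. These pairs have no replicate and carry no test.

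In the OT-I pair the 5 genes were Ctsw (2.14), Dapl1 (2.04), Nkg7 (2.00), Eomes (1.99) and Cst7 (1.60), given as log2 CKO minus control. The median difference of the 8 genes was 1.79 in OT-I cells, 0.68 in CD8SP cells, -0.57 in CD4SP cells and 0.35 in DP cells, beside -0.09, -0.12, -0.01 and 0.15 over all genes. Eomes was higher in CKO in each mature pair, by 1.80 in CD8SP cells, 1.99 in OT-I cells and at least 1.55 in CD4SP cells, where the control array was below detection. With normexp background correction these differences were 0.99, 0.93 and 0.42, and with the mean of its probes the OT-I difference was 1.04. In DP cells neither array measured it.

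Markers of other cells differed within the same pairs. DP-stage markers had a summed log2 level of 0.97 in CKO OT-I cells (3 of 4 well above background) and 4.51 in control OT-I cells (4 of 4). The sums were 4.53 in CKO and 5.63 in control CD8SP cells, 3.47 and 1.92 in CD4SP cells, and 8.44 and 8.39 in DP cells. Ptcra, the pre-T-cell receptor chain, was at -1.85 in CKO and 3.26 in control OT-I cells, and at 2.11 and 4.36 in CD8SP cells. NK markers were well above background for 2 of 7 in CKO CD4SP cells and 6 of 7 in control CD4SP cells, with summed levels of 2.54 and 4.86. The NK receptor gene Klrb1c and the cytokine gene Il4 were detected on the control CD4SP array only. In CD8SP cells the NK list stood at 5.87 in CKO (4 of 7) and 4.72 in control (3 of 7), and in OT-I cells at 3.33 (4 of 7) and 2.85 (3 of 7). Its brightest marker on these CD8SP and OT-I arrays was Tyrobp, at 5.54 in CKO and 4.13 in control CD8SP cells, and at 2.88 and 2.33 in OT-I cells. Of 8 myeloid and dendritic markers, Mpeg1 was at 4.77 and 3.89, and Itgax at 2.58 and 1.38, in CKO and control CD8SP cells. Itgam and Siglech were also higher in CKO CD8SP cells, and Csf1r and C1qb lower. Lyz2 and C1qa were not well above background on either CD8SP array. Ncr1, a defining NK receptor, was not well above background on any of the 9 arrays. The part of these markers in the differences of the 8 genes was not tested.

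**Figure D3:**
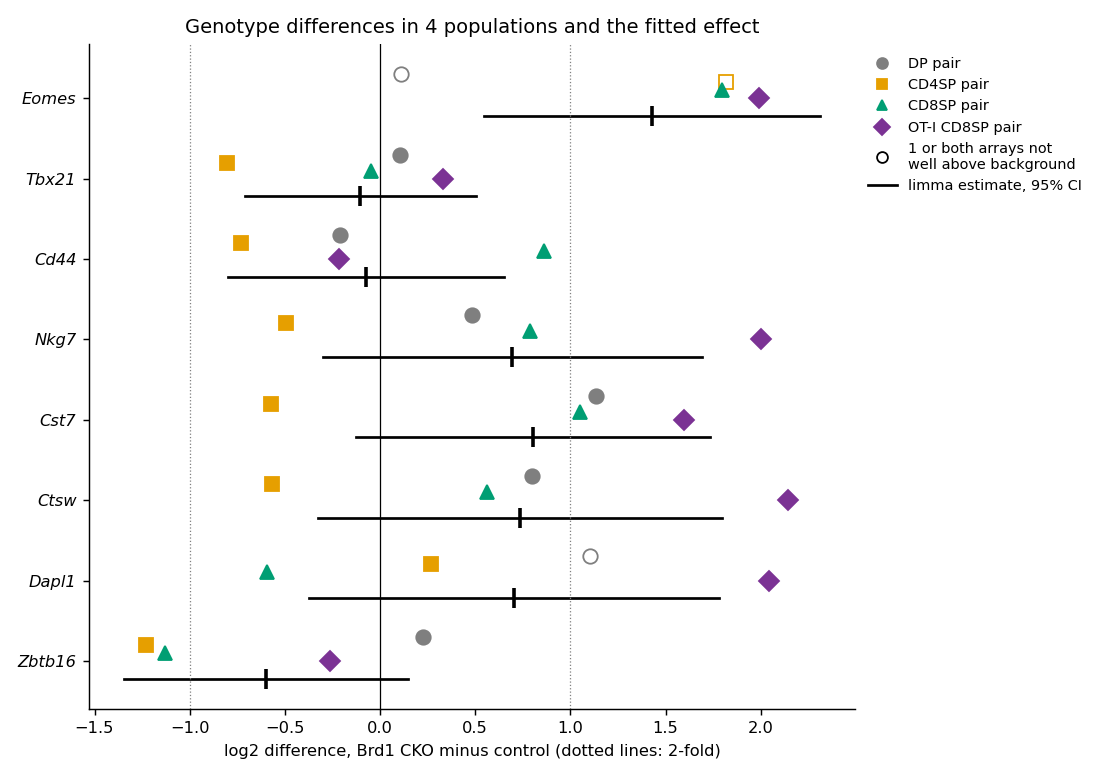
CKO minus control for the 8 genes, as log2 differences in each of the 4 populations (symbols, open where 1 or both arrays were not well above background), with the limma genotype estimate and its 95% interval. Eomes lies at 1.80 in CD8SP cells and 1.99 in OT-I cells, and the interval of every other gene crosses 0.

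Across all 4 populations, 0 of the 8 genes were called for genotype by limma, where 0.281% of all genes were. By unadjusted p, 1 of the 8 was under 0.05, against 10.9% of all genes. That gene was Eomes, 1.43 higher in CKO (SE 0.36, 95% interval 0.55 to 2.31, adjusted p = 0.271), with means of -1.36 in CKO and -2.79 in control that include the values below detection. Cst7 differed by 0.80 (95% interval -0.13 to 1.74, adjusted p = 0.503), Ctsw by 0.73 (-0.33 to 1.80, adjusted p = 0.558), Dapl1 by 0.70 (-0.37 to 1.78, adjusted p = 0.574) and Nkg7 by 0.69 (-0.30 to 1.69, adjusted p = 0.557). Zbtb16 differed by -0.60 (-1.35 to 0.15, adjusted p = 0.520). Tbx21 (-0.10, interval -0.71 to 0.50) and Cd44 (-0.07, interval -0.80 to 0.65) lay near 0, and the sign of each turned without the CD4SP pair, to 0.13 and 0.14.

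Of the 8 estimates 5 were positive, against 45.3% of all genes, with a median of 0.70 against -0.04 over all genes. The estimates of 3 genes rested on the OT-I pair, since without it Nkg7 was 0.26, Ctsw 0.26 and Dapl1 0.26, and Cst7 was 0.54. Without the CD4SP pair the estimates of Cst7, Ctsw and Nkg7 were 1.26, 1.17 and 1.09. On the first slide alone, which holds the DP and CD4SP pairs and no whole CD8SP pair, Eomes was 0.96, Nkg7 -0.0055, Ctsw 0.11 and Cst7 0.28. The OT-I pair given above is the only whole pair on the second slide. Eomes was between 1.24 and 1.87 when each pair was left out in turn.

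Whether the CKO difference was larger in the CD8SP and OT-I pairs than in the DP and CD4SP pairs was tested as an interaction in limma. None of the 8 genes was called or had an unadjusted p under 0.05 (0 of 8), while 0% of all genes were called and 15.1% had an unadjusted p under 0.05. Nkg7 had the largest estimate, 1.40 (95% interval -0.14 to 2.94, adjusted p = 0.350), followed by Ctsw at 1.24 (adjusted p = 0.453), Cst7 at 1.04 (adjusted p = 0.473) and Eomes at 0.93 (adjusted p = 0.504). Dapl1 was at 0.04 (95% interval -2.41 to 2.49). A difference between CD8 populations and the others in the response to Brd1 loss was therefore not shown for any of the 8.

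Zbtb16 was set beside markers of innate-like cells because iNKT cells carry PLZF. The iNKT list was well above background for 3 of 5 markers in CKO CD4SP cells and 5 of 5 in control CD4SP cells, at summed levels of 3.91 and 4.57. In CD8SP cells the sums were 4.09 in CKO and 3.63 in control, and in OT-I cells 5.02 and 2.72. Il2rb, a cytokine receptor gene, was the brightest of the 5 on each CD8SP and OT-I array. It was at 3.95 in CKO and 3.39 in control CD8SP cells, and at 4.87 and 2.30 in OT-I cells. Klrb1c and Il4 were not well above background on these arrays, so the sums there mostly follow Il2rb. Zbtb16 also belongs to this list, and was lower in CKO in both CD8 pairs. γδ T-cell markers, of which 4 of 6 were matched on the array, summed to 3.35 in CKO OT-I cells (2 of 4 well above background) and 5.21 in control OT-I cells (3 of 4), and to 0.87 to 1.92 on the other arrays. The brightest of the 4 on both OT-I arrays was Cd163l1, at 3.01 in CKO and 5.06 in control. Which cells carried the Zbtb16 signal was not tested.

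**Figure D4:**
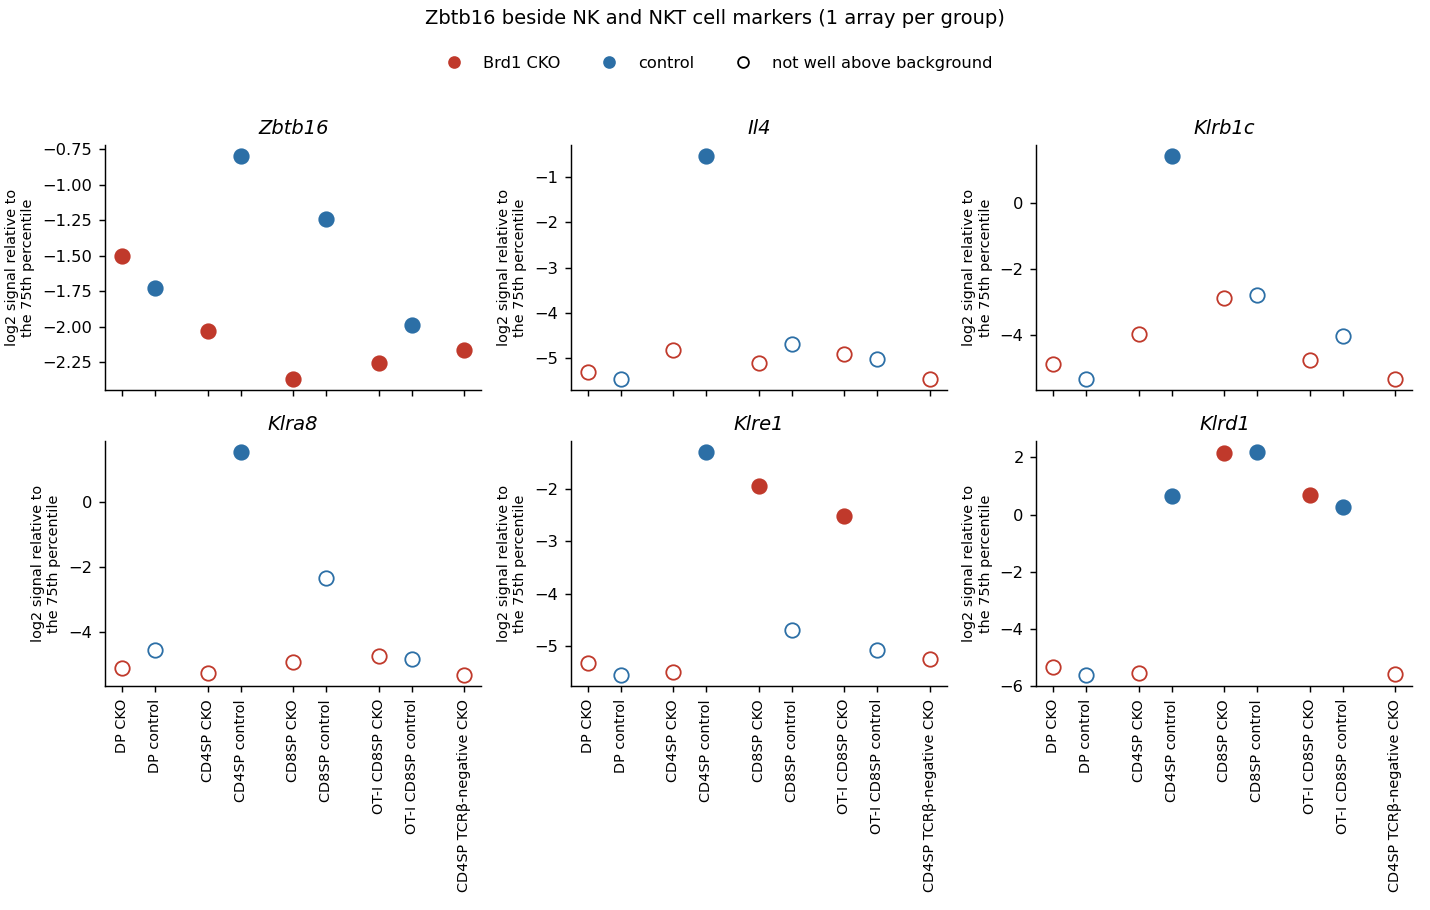
Zbtb16 beside NK and iNKT marker levels on each array, as log2 signal relative to the array's 75th percentile, with open symbols where a probe was not well above background. The control CD4SP array holds the highest Zbtb16 level, -0.80, and is the one array with Klrb1c and Il4 detected.

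Over the 9 arrays Eomes, Nkg7, Cst7, Ctsw and Dapl1 varied together, with pairwise Pearson correlations of 0.90 to 0.98, highest for Cst7 with Ctsw. By mean level, Eomes, Cst7, Ctsw and Dapl1 had the order CD8SP, OT-I, CD4SP, DP and TCRβ-negative cells, and Nkg7 the same order with OT-I first. The neighbours CD8SP and OT-I overlapped for these 5 genes and for Zbtb16 but not for Tbx21 and Cd44, and OT-I and CD4SP overlapped for Eomes and Ctsw but not for Nkg7, Cst7 and Dapl1. Tbx21 correlated with the other genes at 0.16 to 0.68 and Zbtb16 at -0.31 to 0.41. These correlations run across populations that share slides and scaling, and are a description. Among 11215 other genes, the profile most like that of Eomes was Cd226 (r = 0.99), an activating receptor of T and NK cells. Those of Cst7 and Dapl1 were most like Jaml (r = 0.99), a junctional adhesion molecule, and Crtam (r = 0.98), a receptor of activated CD8 T cells. Nkg7 was nearest to Orai3 (r = 0.98), a calcium channel, and Ctsw to Gm4832 (r = 0.99). Tbx21 was nearest to Fcer1g (r = 0.95), the Fc receptor γ chain of NK and myeloid cells, Cd44 to Rgs1 (r = 0.96), a regulator of G-protein signalling, and Zbtb16 to Aldh8a1 (r = 0.97). The next in likeness were Glipr2 and Rab43 for Eomes, Ifitm2 and Tspan17 for Tbx21, Ly6a and Tent5c for Cd44, and Ostf1 and Haao for Nkg7. For Cst7 they included Orai3, for Ctsw they were Igflr1 and Rarg, for Dapl1 Adgrg5 and Zfp566, and for Zbtb16 Cyp2c37 and Cdhr2, all at r of 0.90 to 0.99.

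A list of 27 signals and factors tied to this program (cytokine receptors, transcription factors and signalling adaptors) had 23 genes tested. CD8SP cells exceeded DP cells in 4 of them, against 2.42% of all genes higher. These were Il2rb, the interleukin 2 and 15 receptor β chain, by 4.79 (adjusted p = 0.0256), Klf2, a factor of thymic exit, by 4.32 (adjusted p = 0.00939), Id2 by 2.87 (adjusted p = 0.0360) and Runx3, the factor of the CD8 lineage, by 2.71 (adjusted p = 0.0124), all in limma. Bcl6, a repressor of effector genes, differed by -2.63 (adjusted p = 0.0261). With slide as a block, 0 of all 20282 genes were called for CD8SP minus DP, these 5 included. For genotype 0 of the 23 were called and 6 had an unadjusted p under 0.05, against 0.281% and 10.9% of all genes, with a median of 0.35 against -0.04 over all genes. Klf2 was at 3.18, 6.77, 7.77 and 7.50 in CKO DP, CD4SP, CD8SP and OT-I cells, against 2.02, 6.50, 6.06 and 6.24 in the controls, higher in CKO in all 4 pairs (1.10, adjusted p = 0.273 in limma). Egr2, a factor induced by receptor signals, was likewise higher in CKO in all 4 pairs (0.79, adjusted p = 0.461 in limma). Il2rb was at -0.43, 3.67, 3.95 and 4.87 in CKO DP, CD4SP, CD8SP and OT-I cells, against -1.80, 4.06, 3.39 and 2.30 in the controls, lower in CKO in the CD4SP pair alone. The lowest genotype estimates were those of Ikzf2, the factor Helios (-0.69, adjusted p = 0.445), Tcf7, the factor TCF-1 (-0.33, adjusted p = 0.624) and Sh2d1a, the adaptor SAP (-0.30, adjusted p = 0.703).

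A second list of 27 memory and effector products had 26 genes on the array, Ly6c2 being unmatched, and 22 tested. CD8SP cells exceeded DP cells in 7 of them and 0 fell, by limma, against 2.42% of all genes higher, and with slide as a block none of the 7 was called. These 7, like the 5 genes of the first list, are named because they passed this test. They were the chemokine genes Xcl1 (6.14) and Ccl5 (5.37), the chemokine receptor Cxcr3 (5.07), the surface proteins Cd7 (5.02) and Ly6c1 (3.48), and the granule genes Gzmm (2.14) and Prf1 (1.77), with adjusted p between 0.00802 and 0.0441. For genotype 0 of 22 were called and 7 had an unadjusted p under 0.05, against 0.281% and 10.9% of all genes, with 15 positive and a median of 0.40. Ccl3, a chemokine gene, had the highest estimate, being well above background on 3 of 4 CKO arrays and 0 of 4 control arrays. Its limma estimate of 2.79 on the log2 scale (adjusted p = 0.287) includes values below detection in both genotypes. Klrg1, an inhibitory receptor of effector cells, was well above background on all 4 CKO arrays and 1 of 4 control arrays (fitted 2.07, adjusted p = 0.479), and Ifng on 4 and 2 of 4 (fitted 2.23, adjusted p = 0.355). Among the lowest estimates were those of the NK receptor gene Klrd1 (-1.38, adjusted p = 0.653) and Cd7 (-0.70, adjusted p = 0.654). By pair, 11 of 22 compared were over 2-fold higher in CKO CD8SP cells and 7 of 20 in CKO OT-I cells, against 6.7% and 8.45% of all genes. In DP cells 6 of 16 were over 2-fold higher and 0 over 2-fold lower in CKO, against 3.86% and 5.28% of all genes. In CD4SP cells 3 of 23 were over 2-fold higher and 8 over 2-fold lower in CKO, against 3.44% and 5.24% of all genes. Both lists were drawn up with earlier results of these arrays known and are not independent evidence of a direction.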

How the data were processed

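Sorted thymocyte RNA was measured on 1-colour Agilent arrays, and per the file headers each deposited file holds spot intensity values from Agilent Feature Extraction 10.7.1.1, with local background already subtracted in the processed signal. The labels' protocols name a biotin label, while the deposited files hold a single green channel. Control spots and 144 outlier probes of 55681 were left out, and log2 of the deposited processed intensity was centred on each array's 75th percentile. The authors' deposited series table holds the same processed intensity divided by each array's 75th percentile, as found by comparison with the scanner values, and served as an alternative. A gene was represented by its brightest probe on average. Genes well above background on at least 2 arrays were tested (20282, 12285 of them named). All 8 members passed, Eomes being detected on 5 arrays, Dapl1 on 7 and the others on 9.

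limma 3.58.1 in R 4.3.3 fitted population and genotype over the 9 arrays, with 3 residual degrees of freedom, and a second fit added the interaction. With 1 array per group, genotype p-values measure the spread of the CKO difference between populations, and nothing states separate animals beyond that. Population p-values rest on the same spread, with both genotypes of a population standing in for replicates. The TCRβ-negative group is 1 array. The limma fit was tested on simulated data. Named genes were the 8 members, the related genes with the 3 highest and 3 lowest genotype estimates per list, and the 3 nearest profiles of each member, while related genes called for CD8SP minus DP were added after their values were seen. A few genes that this rule names are not reported here. The members and lists were chosen with earlier results of these data known. The number of arrays limits the precision.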

Additional observations from a re-analysis of the deposited data

How the results depend on the processing

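The count of genes called for genotype stayed at 0 of 8 under 13 alternatives. No gene of any kind was called with slide as a block or without the DP, CD4SP or CD8SP pair. The same held without the CD4SP control array, so these settings could not have called any of the 8. Slide as a block and leaving out the CD8SP pair gave the same estimates, as did leaving out the CD4SP pair or its control array. Eomes, Cst7, Ctsw, Dapl1 and Zbtb16 kept the sign of their genotype estimate under all 13, Eomes between 0.60 (normexp background) and 1.87 (without the DP pair). The genotype estimate changed sign for Cd44, to 0.050 (normexp), 0.019 (mean of all probes) and 0.14 (without the CD4SP pair, or its control array), for Tbx21, to 0.13 (the same 2 settings), and for Nkg7, to -0.0055 (first slide alone). Zbtb16 changed sign in the interaction, to 0.13 (percentile over detected probes) and 0.051 (normexp). It did so in CD8SP minus DP, to 0.028 (normexp), 0.16 (slide as a block) and 0.12 (first slide alone), and, without the CD4SP control array, in CD8SP minus CD4SP, to 0.029, and CD4SP minus DP, to -0.22. For OT-I minus CD8SP, slide as a block turned Dapl1 to 0.0099 and Zbtb16 to 0.037.

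The number of genes called for CD8SP minus DP, 5, became 4 with the detected-probe percentile or quantile normalization (without Nkg7), 6 with normexp (with Tbx21) and 0 with slide as a block. For CD4SP minus DP the 4 became 2 with the detected-probe percentile (Cst7 and Dapl1) or normexp (Ctsw, and Cd44, which was not among the 4), 1 with quantile normalization or slide as a block, and 0 without the CD4SP control array. For TCRβ-negative minus CD4SP the 2 became 0 with the detected-probe percentile, quantile normalization, slide as a block or without the CD4SP control array, 1 with normexp (Ctsw, not among the 2), 4 with no filter or detection on at least 5 arrays, and 5 on the first slide alone. For CD8SP minus CD4SP the 0 calls changed on the first slide alone, where CD8SP is a single array and more of all genes were called. Some of the losses above covered all genes. Without the CD4SP control array no gene was called in any contrast with CD4SP cells. Slide as a block left no call in CD8SP minus DP or TCRβ-negative minus CD4SP, and quantile normalization left none in the latter. Of changes over 2-fold, the 1 higher gene in DP became 0 with the detected-probe percentile or normexp. In CD8SP the 1 lower gene became 0 under the same 2 settings. The 2 higher genes there became 1 with normexp and 3 with the detected-probe percentile or quantile normalization. In OT-I cells the 5 higher genes became 4 with normexp. In CD4SP the 1 higher gene became 0 with normexp or the mean of probes, and the 1 lower gene became 0 with normexp. The cause of these changes was not tested.

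Over all genes, the 57 genotype calls ranged from 0 to 132, the 702 of CD8SP minus DP from 0 to 1552, the 626 of CD4SP minus DP from 0 to 2000, the 284 of TCRβ-negative minus CD4SP from 0 to 1373, the 79 of CD8SP minus CD4SP from 0 to 1027, and the 48 of OT-I minus CD8SP from 17 to 62. The share of genotype calls that were higher in CKO was 14.0%, against 3.12% with the detected-probe percentile and 48.0% with normexp. The CD4SP control array and the slide settings for population differences were chosen after seeing the data. No paired analysis was possible because the labels give no replicate numbers that tie arrays of different groups, beyond the population term that the genotype fit already holds.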
